A study of Mus musculus with 15 samples.

Results

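The livers of 10 mice given a DNA-damaging drug, either cisplatin or doxorubicin, were set as 1 side against the livers of 5 mice given saline, and the genes whose levels lay wholly on 1 side of the saline range after both drugs are described. A gene was taken when it reached 1 FPKM (fragments per kilobase of exon, scaled to library size) in at least 5 of the 15 libraries and when all 10 drug values lay above, or all 10 below, every saline value. The deposited table lists 21878 genes, of which 10552 reached the level, and 547 of them (5.18%) met the rule, 290 with all drug values above (2.75% of the genes that reached it) and 257 with all below (2.44%). They are called separated genes, and since their levels chose them, their separation is a description and not a test. Of the 290 genes above saline, 23 were under 1 FPKM in every saline library and reached the level through the drug libraries, so these had to differ in order to be included. Phlda3, Tnfrsf10b, Cbr3, Gria3, Atp8b5 and Ddias, described below, are among these 23. Derl3 and Slc1a4, with only some saline values at 1 FPKM or more, also needed drug libraries to reach the level. Below saline the reverse holds: Rrm2, Fhit and Serpinb1a reached the level only with the saline libraries. Such genes below saline were not counted.

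All mice were 8-week-old C57BL/6J males, and liver was taken 1 day after a single intraperitoneal injection, with 5 libraries per group. Cisplatin, a platinum compound that crosslinks DNA, was given at 10 mg/kg from 1 mg/mL in saline. Doxorubicin, an anthracycline that blocks topoisomerase II on DNA, was given at 10 mg/kg from 2 mg/mL in sterile water, and the controls received saline once, in a volume that the labels do not give. A note on the design states that doxorubicin information is missing, but each sample's own labels give drug and dose, and these were used. A single dose and 1 time were measured, in poly(A)-selected RNA of whole liver. Values of a group are given below in the order of replicates 1 to 5, and for doxorubicin 1 to 4 followed by a library whose column number matches no label, called doxorubicin unnumbered.

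Reads assigned to genes came to 27.6 to 34.7 megareads (M) per saline library, 25.3 to 31.02 M per cisplatin library and 37.6 to 50.7 M per doxorubicin library, so every doxorubicin library was deeper than every other library. Depth and vehicle cannot be told apart from doxorubicin itself. Saline 2 was the highest or the lowest saline library in 73.0% of tested genes, and without it the rule gave 443 genes above and 340 below. The summed level of 14 hepatocyte markers, which include albumin and transferrin, was 76105 to 88744 FPKM in the saline, 85897 to 91522 in the cisplatin and 73005 to 87622 in the doxorubicin libraries, and these ranges overlapped. P-values measure the spread between the mice of a group, and genes were compared as log2(FPKM + 1) in a single limma fit of the 3 groups, with Benjamini-Hochberg adjustment over all 10552 genes at 0.05. The pooled change is the mean of both drug groups minus the saline mean on that scale, so a gene that moves after only 1 drug can also be called.

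As background, cells whose DNA is broken or crosslinked stabilise the transcription factor p53, which switches on genes of growth arrest, DNA repair and cell death. Secretory cells such as hepatocytes answer crowding of unfolded proteins in the endoplasmic reticulum (ER) with the unfolded protein response, in which the sensor IRE1α (gene Ern1) cuts the mRNA of Xbp1 so that it encodes an active transcription factor of chaperone genes. The liver also secretes acute phase proteins and hormones, among them GDF15, which acts on the hindbrain and lowers food intake, and the series title names IRE1α and GDF15.

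By the pooled change, limma called 1223 genes higher (11.6% of those tested) and 1333 lower (12.6%). Which direction held more calls changed with the scaling: median-ratio scaling gave 1452 higher and 1230 lower, and quantile normalization 1406 and 1374. Without saline 2 the counts were 1321 and 1107. All 290 separated genes above saline were called higher, and 256 of the 257 below were called lower, which the rule nearly fixes since it uses the same values. The exception was Tor1aip1, a nuclear envelope protein that was named after its values were seen, with a pooled change of -0.16 ± 0.06 (SE, adjusted p = 0.0594). Most separated genes moved little: the median pooled change was 0.57 above and -0.58 below, against -0.03 over all tested genes, and only 73 genes above and 33 below moved by at least 1 on the log2 scale. The largest changes were 3.55 up and 3.35 down. Of the 547 genes, 118 stood in at least 1 of 45 lists of pathways and cell type markers, and 429 stood in none. List counts are to be read beside the shares over all tested genes, 11.6% called higher, 12.6% called lower, 2.75% separated above and 2.44% below.

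**Figure D1:**
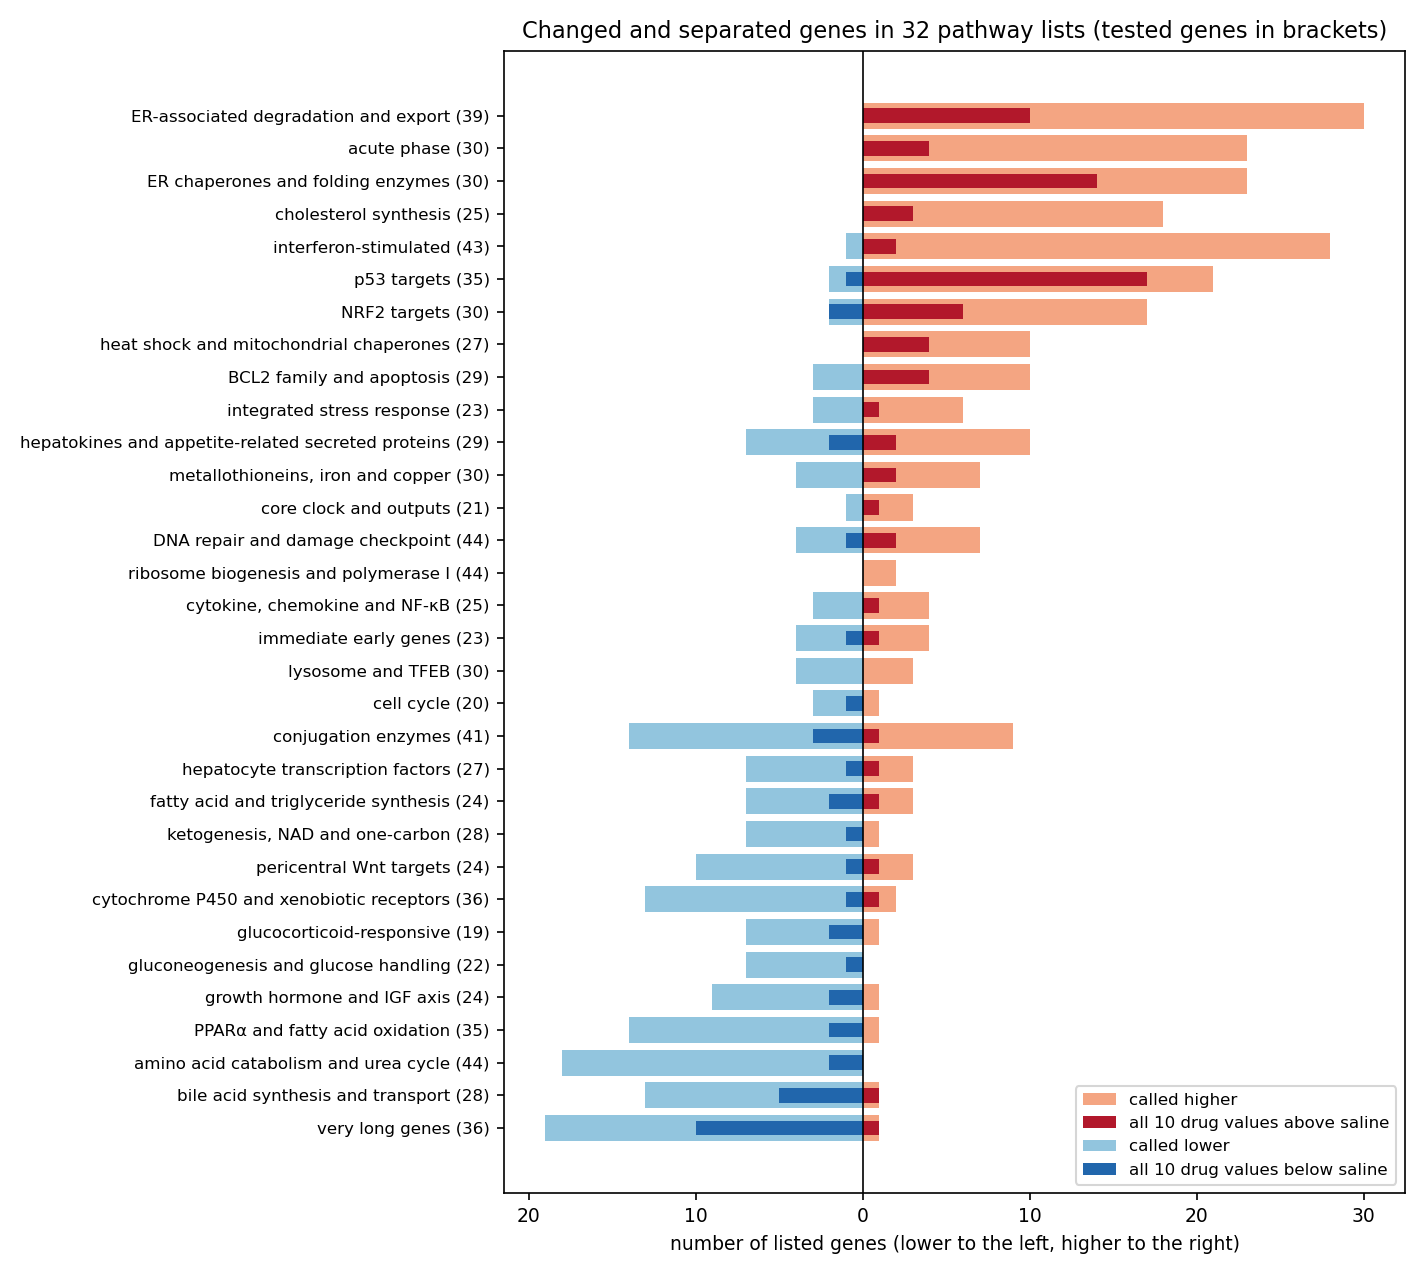
Number of listed genes called higher or lower by limma (pale bars, pooled change, adjusted p under 0.05) and number with all 10 drug values above or below every saline value (dark bars) in 32 pathway lists, with the number of tested genes in brackets. The p53 list holds 17 genes above saline among 21 called higher, while the interferon list holds 2 among 28.

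Gdf15 (chromosome 8, 70629393 to 70632470, GRCm38), the gene that encodes the hormone GDF15, was 1 of the separated genes. It stood at 9.61, 11.5, 4.92, 10.8 and 10.97 FPKM after saline, at 34.8, 32.5, 28.8, 64.5 and 39.7 after cisplatin and at 57.9, 39.7, 47.5, 33.6 and 58.9 after doxorubicin. The lowest drug value was 2.50 times the highest saline value, and both drug groups covered nearly the same range. The pooled change was 2.08 ± 0.20 (SE), and no test of it is given, since separation nearly fixes the outcome of a test on the same values.

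Xbp1 (chromosome 11, 5520641 to 5525993) was separated as well, but by little: the saline values were 71.4, 75.8, 71.3, 73.7 and 70.8 FPKM, the cisplatin values 98.2, 83.0, 124, 84.5 and 87.1 and the doxorubicin values 133, 139, 136, 148 and 155. The lowest drug value stood 1.09 times above the highest saline value. The pooled change of 0.67 ± 0.09 joined 0.37 ± 0.10 after cisplatin and 0.96 ± 0.10 after doxorubicin, and the difference between the drugs was called (limma adjusted p = 0.000587). Gene-level FPKM does not tell the spliced from the unspliced mRNA. Ern1 (chromosome 11, 106397620 to 106487796) was not separated, with 6.17 to 11.1 FPKM after saline and 4.31 to 12.2 after the drugs, and its pooled change was -0.15 ± 0.17 (exact two-sided permutation test of 10 against 5 libraries, p = 0.431).

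Genes that p53 is known to activate held 17 separated genes above saline, beside 14 in the list of ER chaperones, and without saline 2 each of these lists held 19. Of 35 tested p53 targets 21 were called higher and 2 lower, 17 had all drug values above saline and 1 below, and the median pooled change was 0.70. The 2 drugs gave similar medians, 0.57 after cisplatin and 0.79 after doxorubicin. The 17 genes were Cdkn1a, Ccng1, Phlda3, Aen, Eda2r, Zmat3, Bbc3, Bax, Tnfrsf10b, Btg2, Gtse1, Ddit4l, Plk2, Polk, Gadd45a, Psrc1 and Ephx1. Without saline 2, 22 of the tested p53 targets were called higher. Of the 17, Phlda3 and Tnfrsf10b were under 1 FPKM in every saline library, so these had to differ in order to be counted.

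Phlda3 (chromosome 1, 135766085 to 135769134), a p53 target that restrains the kinase Akt, had the largest pooled change of the 290 genes above saline. It was nearly silent after saline, at 0.334, 0.290, 0.346, 0.471 and 0.543 FPKM, and stood at 20.3, 7.23, 12.2, 19.1 and 8.72 after cisplatin and 25.05, 14.8, 19.2, 14.96 and 21.1 after doxorubicin. The lowest drug value was 13.3 times the highest saline value, and the drug mean was 40.97 times the saline mean. The pooled change was 3.55 ± 0.19, and doxorubicin exceeded cisplatin by 0.54 ± 0.22, which was not called (adjusted p = 0.104).

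Cdkn1a (chromosome 17, 29090979 to 29100722), which encodes the cell cycle inhibitor p21, stood at 15.5, 7.89, 13.7, 25.3 and 16.9 FPKM after saline, at 54.4, 34.7, 33.6, 46.99 and 43.7 after cisplatin and at 124, 68.2, 67.2, 62.1 and 91.95 after doxorubicin. All 3 groups lay apart, and the pooled change was 1.89 ± 0.21. The promoter window of Cdkn1a (250 bases before to 50 after the start, RefSeq, GRCm38.p6) held paired p53 half-sites. The match is shown because p53 is known to act on this gene, but whether p53 binds here was not tested. The matched half-sites and the spacer between them are in capitals, and further flanking sequence is in lower case. The search allowed no mismatch. The run directly after the capitals misses the half-site pattern by its first base only, so a pairing with it is not marked. Which half-sites p53 uses was not tested.
Cdkn1a (chr17:29090886-29090957, plus strand): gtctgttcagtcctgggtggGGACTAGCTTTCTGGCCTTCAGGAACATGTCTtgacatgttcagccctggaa
The match starts 73 bases upstream of the annotated start and was found on both strands, since the pattern searched reads the same on each. A full p53 site, with a spacer allowed between the half-sites, was present in 24 of 32851 such promoters (0.0731%), and among the 15 separated p53 targets that the promoter table holds, in 1.

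Ccng1 (chromosome 11, 40748552 to 40755309), encoding cyclin G1, rose from 11.7, 12.01, 15.9, 14.3 and 14.4 FPKM to 72.8, 39.1, 52.2, 71.7 and 46.5 after cisplatin and 93.9, 61.4, 54.7, 55.9 and 63.8 after doxorubicin. Its lowest drug value was 2.46 times its highest saline value, and doxorubicin minus cisplatin was 0.23 ± 0.17 (adjusted p = 0.391). Plk2, a polo-like kinase, stood at 2.50 to 5.23 FPKM after saline and 9.70 to 28.3 after the drugs, with a pooled change of 1.90 ± 0.18. Tnfrsf10b, a receptor for the death ligand TRAIL, stood at 0.220, 0.201, 0.160, 0.190 and 0.0836 FPKM after saline, 2.07, 0.760, 1.39, 2.54 and 1.31 after cisplatin and 2.12, 1.35, 1.76, 1.04 and 1.79 after doxorubicin, and the drug groups had almost the same mean, with a difference of 0.02 ± 0.16. Ephx1, microsomal epoxide hydrolase, was the most abundant of the named p53 targets, at 217 to 312 FPKM after saline and 567 to 925 after the drugs. Bax, which opens the mitochondrial outer membrane in cell death, was separated by the narrowest margin of the group: saline 2 and cisplatin 2 were both at 22.5 FPKM after rounding, although the means were 15.5 ± 4.32, 30.2 ± 4.997 and 38.6 ± 6.26 FPKM (SD, n = 5 each). Bbc3, which encodes the BCL2 antagonist PUMA, changed by 0.67 and 0.73 after cisplatin and doxorubicin. Polk, a DNA polymerase that copies past lesions, changed by 1.07 and 1.04.

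Mdm2, which encodes the ligase that marks p53 for destruction, missed separation by 1 library: cisplatin 2 at 17.3 FPKM stood under saline 2 at 19.7. It was named after its values were seen, so no test of it is given, and its pooled change was 1.26 ± 0.22. The p53 target below saline was Xpc, a sensor of damage in nucleotide excision repair, at 4.63, 4.50, 4.89, 5.40 and 4.35 FPKM after saline, 3.65, 3.84, 3.77, 3.97 and 3.77 after cisplatin and 3.96, 3.45, 3.62, 3.19 and 3.33 after doxorubicin. Its fall of 0.31 ± 0.06 was small. Every drug value lay below every saline value, while the drug groups overlapped each other. Among 44 tested genes of DNA repair and the damage checkpoint as a whole, 7 were called higher and 4 lower (median 0.09), shares near the 11.6% and 12.6% of all tested genes, and Polk, Xrcc5 and Xpc were the separated ones. Xrcc5, the Ku80 subunit of end joining, stood at 5.87 to 7.16 FPKM after saline and 8.10 to 11.4 after the drugs. Of 29 tested genes of the BCL2 family and apoptosis 10 were called higher and 3 lower, and Mlkl, the executor of necroptosis, was separated above beside Bax, Bbc3 and Tnfrsf10b, at 1.31 to 2.63 FPKM after saline and 3.12 to 6.60 after the drugs.

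**Figure D2:**
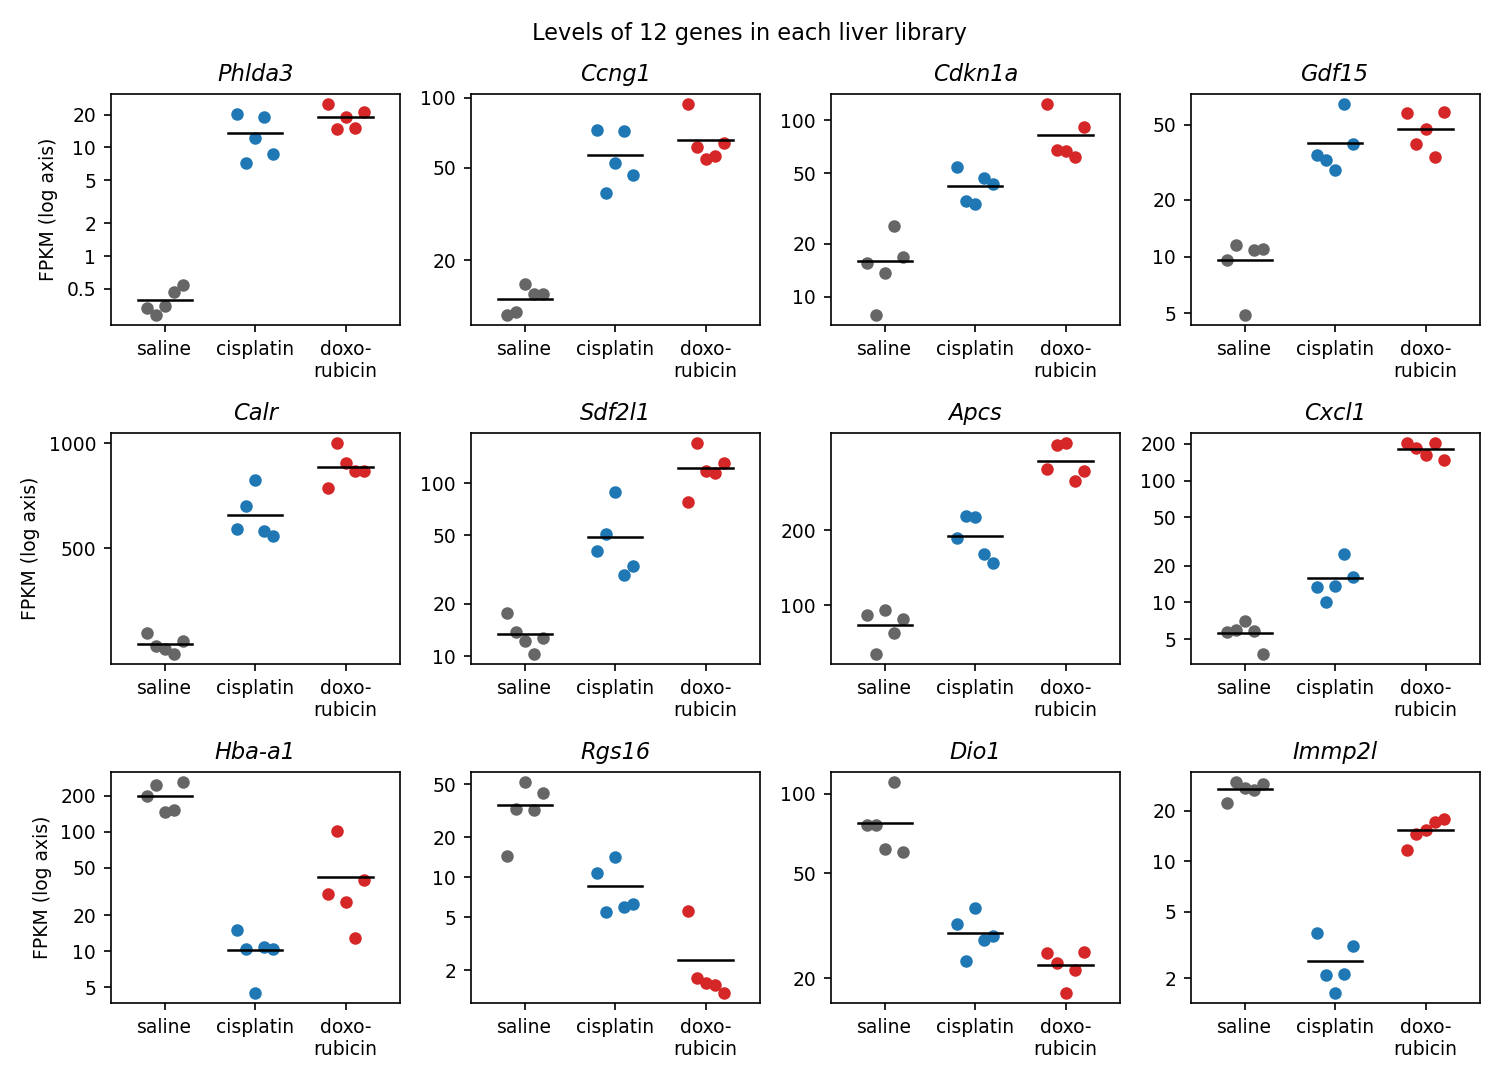
FPKM (log axis, scale differing between panels) of 12 named genes in each of the 15 libraries, with a line at each group mean. The cisplatin and doxorubicin values of Phlda3, Ccng1 and Gdf15 overlap, Cxcl1 is far higher after doxorubicin, and Immp2l is lowest after cisplatin.

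Most genes of protein folding in the ER rose in the pooled comparison. Of 30 tested chaperones and folding enzymes 23 were called higher and 0 lower, 14 had all drug values above saline, and the median pooled change was 0.73, with 0.60 after cisplatin and 0.94 after doxorubicin. Of 39 tested genes of ER-associated degradation and export 30 were called higher and 0 lower, 10 were separated above, and the median was 0.49. Without saline 2, the counts called higher were 23 and 27, and 19 and 13 were separated above. The background over all tested genes was 11.6% called higher and 2.75% separated above.

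The ER stress response element (ERSE, CCAAT, 9 bases of any kind, then CCACG) is a sequence that factors of the unfolded protein response are known to bind. It was searched on both strands of the promoters, and 6 of the 241 separated genes above saline that the RefSeq table holds had it (2.49%), against 16 of 8522 tested genes (0.188%), 37 of all 27025 genes in the table (0.137%) and 0 of the 204 separated genes below. Counted by promoter, 39 of 32851 held it (0.119%). These are the matches with their flanks, on GRCm38.p6, with the element in capitals.
Calr (chr8:84847055-84847113, plus strand): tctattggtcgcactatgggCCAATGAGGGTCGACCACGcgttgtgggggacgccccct
Canx (chr11:50325780-50325838, minus strand): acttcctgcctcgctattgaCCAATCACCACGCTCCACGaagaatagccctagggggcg
Derl3 (chr10:75893222-75893280, minus strand): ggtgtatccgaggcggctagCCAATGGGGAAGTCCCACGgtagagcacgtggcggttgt
Dnajc3 (chr14:118937807-118937865, plus strand): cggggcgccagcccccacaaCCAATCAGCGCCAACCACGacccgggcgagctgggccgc
Hsp90b1 (chr10:86705513-86705571, plus strand): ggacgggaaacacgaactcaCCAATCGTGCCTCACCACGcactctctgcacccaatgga
Hsp90b1 (chr10:86705618-86705676, minus strand): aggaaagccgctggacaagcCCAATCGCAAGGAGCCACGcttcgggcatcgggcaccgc
Pdia6 (chr12:17266471-17266529, plus strand): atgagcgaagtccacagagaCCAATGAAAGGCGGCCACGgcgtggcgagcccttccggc
Calr, Canx, Dnajc3, Hsp90b1 and Pdia6 belong to the chaperone list, where 5 of 13 separated genes with a promoter in the table had the element (38.5%). Of all 27 tested genes of that list with a promoter 8 had it (29.6%), among them Creld2, Ero1b and Hspa5, which were not separated. Derl3 belongs to the degradation list. A match is a run of letters in a window and not a shown binding site.

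Sdf2l1 (chromosome 16, 17130138 to 17132383), a cofactor of the ER chaperone BiP, had the largest change of the chaperone list. The saline values were 17.7, 13.7, 12.3, 10.3 and 12.7 FPKM, the cisplatin values 40.7, 50.7, 89.0, 29.6 and 33.3 and the doxorubicin values 78.2, 170.4, 118, 114 and 131. Cisplatin 3 reached into the doxorubicin range, and otherwise the drug groups lay apart. Calr (chromosome 8, 84842088 to 84846931), encoding the lectin chaperone calreticulin, stood at 287, 264, 258, 250.2 and 271 FPKM after saline, at 568, 661, 786, 561 and 544 after cisplatin and at 743, 1001, 879, 834 and 830.3 after doxorubicin, so the saline values hardly varied and the lowest drug value was 1.90 times the highest of them. Manf, a small secreted ER protein, stood at 17.7 to 28.2 FPKM after saline, 31.6 to 96.5 after cisplatin and 94.1 to 164 after doxorubicin. Pdia6, a protein disulfide isomerase, changed by 1.32 ± 0.12 in the pooled comparison. Hsp90b1, the ER form of HSP90, stood at 181 to 247 FPKM after saline and 264 to 716 after the drugs. Canx and Dnajc3, calnexin and a J-domain partner of BiP, were separated by ratios of only 1.02 and 1.01 between the nearest drug and saline values.

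Hspa5, which encodes BiP itself, was not separated because cisplatin 4, at 187 FPKM, lay under saline 2, at 196. It was named after its values were seen, so no test of it is given, and its pooled change was 1.41 ± 0.20. Derl3 (chromosome 10, 75893398 to 75895941), which helps to draw misfolded proteins out of the ER, stood at 3.57, 1.13, 0.524, 0.861 and 2.56 FPKM after saline, at 7.40, 5.22, 22.3, 4.01 and 6.77 after cisplatin and at 33.1, 123, 49.5, 22.1 and 103 after doxorubicin. It varied more than 5-fold within each drug group and passed the rule by a ratio of 1.12. Sec61b and Spcs2, subunits of the translocation channel and of signal peptidase, rose by 0.82 ± 0.11 and 0.72 ± 0.09, and both were higher after doxorubicin than after cisplatin (adjusted p = 0.00683 and 0.000377). The integrated stress response acts through translation and is started by the unfolded protein response and by other stresses. Of its 23 tested genes 6 were called higher and 3 lower, beside 11.6% and 12.6% of all tested genes. Gdf15 was the separated one (3 genes without saline 2). Of 27 tested heat shock proteins and mitochondrial chaperones 10 were called higher and 0 lower, and Hspa4l, Hspb8, Cct2 and Cct3 were separated above (9 genes without saline 2), with pooled changes of 0.48, 0.47, 0.20 and 0.46. Cct2 was no longer called under 11 alternatives, among them the replicate block, rescaling to a common FPKM sum and leaving out saline 1, 3, 4 or 5, cisplatin 1 or 3 or doxorubicin 1.

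Genes of sterol synthesis rose in the pooled comparison, by more after cisplatin than after doxorubicin in their medians. Of 25 tested genes 18 were called higher and 0 lower (median 0.78), but the median was 1.28 after cisplatin and 0.23 after doxorubicin, and only Sqle, Mvd and Lss were separated. Sqle, squalene epoxidase, stood at 8.80, 6.61, 11.5, 3.91 and 13.5 FPKM after saline, 43.7, 57.2, 48.8, 26.3 and 33.5 after cisplatin and 17.1, 32.02, 22.3, 26.4 and 24.4 after doxorubicin. Saline values varied more than 3-fold, and still every drug value lay above them. Mvd, mevalonate diphosphate decarboxylase, changed by 2.05 ± 0.27 after cisplatin and 1.51 ± 0.27 after doxorubicin, a difference that was not called (adjusted p = 0.186). Lss, lanosterol synthase, was lower after doxorubicin than after cisplatin by 0.70 ± 0.20 (adjusted p = 0.0208).

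Genes of secreted acute phase proteins rose in the pooled comparison, with a larger median after doxorubicin than after cisplatin. Of 30 tested genes 23 were called higher and 0 lower, 4 were separated above, and the median was 0.78 in the pooled comparison, 0.38 after cisplatin and 1.33 after doxorubicin. Without saline 2, 19 were called higher. Apcs, serum amyloid P, stood at 91.5, 63.9, 95.6, 77.3 and 87.7 FPKM after saline, 186, 227, 226, 160.1 and 148 after cisplatin and 353, 438, 448, 315 and 347 after doxorubicin, which set the 3 groups fully apart. Serpina3n, a protease inhibitor, stood at 115 to 303, 443 to 975 and 778 to 1548 FPKM in the 3 groups. Hp, the hemoglobin scavenger haptoglobin, changed by 1.08 ± 0.12, and Hamp, the iron hormone hepcidin, stood at 675 to 1057 FPKM after saline and 1245 to 5858 after the drugs. Hpx, which encodes the heme scavenger hemopexin and is 1 of the 14 hepatocyte markers, missed separation by 1 library and changed by 1.04 ± 0.17. Fgl1, a hepatocyte protein related to fibrinogen, stood at 437 to 797 FPKM after saline, 966 to 1235 after cisplatin and 1736 to 2195 after doxorubicin.

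The chemokine Cxcl1 (chromosome 5, 90891245 to 90893121), which draws neutrophils, showed the widest gap between the drugs. It stood at 5.72, 5.94, 7.03, 5.76 and 3.79 FPKM after saline, at 13.5, 10.2, 13.6, 25.2 and 16.1 after cisplatin and at 203, 184, 163.1, 202 and 149 after doxorubicin. The 3 groups did not overlap, and doxorubicin exceeded cisplatin by 3.49 ± 0.18 (adjusted p = 8.14e-09). Of 25 tested cytokine, chemokine and NF-κB genes 4 were called higher and 3 lower, and Cxcl1 was the separated one (2 genes without saline 2). The shares called were near the 11.6% and 12.6% of all tested genes. Among 43 tested interferon-stimulated genes 28 were called higher and 1 lower, but the median was -0.01 after cisplatin and 0.86 after doxorubicin, and only Zbp1 and Oasl1 were separated above (4 genes without saline 2). Zbp1, a sensor of Z-form nucleic acid, stood at 5.23, 6.66, 6.02, 5.43 and 4.25 FPKM after saline, 9.25, 13.1, 15.7, 15.9 and 9.58 after cisplatin and 45.97, 38.1, 39.1, 44.1 and 55.2 after doxorubicin. Oasl1, of the oligoadenylate synthetase family, passed the rule by a ratio of 1.01, with cisplatin 1 next to saline 4.

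Summed markers of neutrophils, of monocytes and infiltrating macrophages and of Kupffer cells, the resident macrophages of liver, moved with these groups after doxorubicin. Those of other leukocytes, namely T and NK cells, B and plasma cells and dendritic cells, overlapped the saline range after doxorubicin. The summed level of 14 neutrophil markers was 5.27 to 9.37 FPKM after saline, 3.43 to 10.4 after cisplatin and 27.5 to 42.7 after doxorubicin, and that of 14 monocyte and infiltrating macrophage markers was 117 to 205, 153 to 189 and 249 to 365 FPKM. The sum of 13 Kupffer cell markers was 103 to 169 FPKM after saline, 117 to 154 after cisplatin and 177 to 279 after doxorubicin. Of the 12 that passed the filter 2 were called higher and 1 lower, beside 11.6% and 12.6% of all tested genes. The part of neutrophils, monocytes and Kupffer cells in the chemokine, interferon and acute phase values was not tested. Only 3 of the neutrophil markers and 7 of the monocyte markers passed the filter, of which 3 and 6 were called higher, and 0 were separated from saline by both drugs. S100a9, a defining neutrophil gene, stood at 1.32 to 2.54 FPKM after saline, 0.746 to 4.01 after cisplatin and 11.8 to 19.02 after doxorubicin.

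Genes of the antioxidant factor NRF2 were mostly higher. Of 30 tested targets 17 were called higher and 2 lower, 6 were separated above and 2 below, and the median was 0.37. Nqo1, a quinone reductase, stood at 8.59, 4.55, 8.48, 6.78 and 9.31 FPKM after saline, 17.1, 15.4, 15.8, 18.6 and 12.1 after cisplatin and 26.3, 11.4, 14.8, 14.3 and 18.01 after doxorubicin. Srxn1, sulfiredoxin, hardly varied after saline, at 13.3 to 14.3 FPKM, and stood at 18.7 to 50.9 after the drugs. Doxorubicin 1 held the highest value of both genes and of Cbr3, a carbonyl reductase that stood at 0.180 to 0.427 FPKM after saline and 0.753 to 4.75 after the drugs. Fth1, the ferritin heavy chain, changed by 0.40 ± 0.10. The pair below saline was Cat, catalase, which fell by 0.34 ± 0.08, and Abcc3, an exporter of conjugates, which fell by 0.63 ± 0.10. Gstm4, a glutathione transferase, was the separated gene above saline among 41 tested conjugation enzymes, of which 9 were called higher and 14 lower. For both lists the shares over all tested genes were 11.6% called higher and 12.6% lower.

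Several of the largest rises belonged to none of these pathways. Gria3 (chromosome X, 41400819 to 41678601), which encodes a subunit of AMPA glutamate receptors of neurons, stood at 0.0309, 0.540, 0.160, 0.248 and 0.271 FPKM after saline, 4.78, 0.868, 2.87, 3.98 and 2.11 after cisplatin and 10.8, 5.51, 7.25, 4.60 and 9.07 after doxorubicin. Atp8b5, a lipid flippase, stood at 0.110 to 0.309 FPKM after saline and at 1.68 to 5.12 after the drugs. Both genes were near silent in saline livers, and the log2(FPKM + 1) scale understates such changes. Apoa4, an apolipoprotein, was higher after cisplatin (546 to 1325 FPKM) than after doxorubicin (238 to 568 FPKM), against 138 to 177 FPKM after saline, and doxorubicin minus cisplatin was -1.16 ± 0.23 (adjusted p = 0.00176). Ces2e, a carboxylesterase, stood at 35.8 ± 11.4, 98.4 ± 13.01 and 158 ± 26.6 FPKM (SD, n = 5 each) in the 3 groups. Slc1a4, a transporter of small neutral amino acids, stood at 0.660 to 1.45 FPKM after saline and 1.91 to 4.59 after the drugs. Krt8, a keratin of simple epithelia including hepatocytes, changed by 0.71 ± 0.11.

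Among the genes below saline, the hemoglobin genes Hba-a1 and Hbb-bt had the largest pooled falls. Hba-a1 (chromosome 11, 32283672 to 32284486), encoding α-globin, stood at 201, 245, 146, 152 and 260.3 FPKM after saline, 14.97, 10.4, 4.52, 10.9 and 10.5 after cisplatin and 30.3, 102, 25.98, 12.99 and 39.4 after doxorubicin. Doxorubicin 2 was the highest drug library for this gene and for Hba-a2, Hbb-bt and Hbb-bs. Hbb-bt, a β-globin gene, stood at 33.7, 35.5, 19.3, 31.7 and 29.5 FPKM after saline, 1.43, 1.33, 0.668, 0.566 and 1.86 after cisplatin and 3.13, 14.7, 2.74, 1.73 and 1.21 after doxorubicin. The saline mean was 7.66 times the drug mean for Hba-a1 and 10.2 times for Hbb-bt. Hbb-bs missed separation because doxorubicin 2, at 116 FPKM, reached above the lowest saline value, 112 FPKM. The globin copies are nearly identical, so how reads were divided among them is uncertain. The sum of 12 erythroid markers was 327 to 529 FPKM after saline, 55.4 to 73.4 after cisplatin and 60.1 to 292 after doxorubicin, and of 8 that passed the filter 4 were called lower and 1 higher. In whole liver, fewer cells of a type and less RNA per cell cannot be told apart, and red cell precursors or blood in the tissue were not measured separately.

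Part of the genes of lipid use fell. Of 35 tested targets of the fasting receptor PPARα and enzymes of fatty acid oxidation 14 were called lower and 1 higher (median -0.34), but without saline 2 only 9 were called lower. Over all tested genes 12.6% were called lower and 11.6% higher. The separated ones were Angptl4 and Acaa1b. Angptl4, a secreted inhibitor of lipoprotein lipase, stood at 164, 223, 145, 155 and 157 FPKM after saline, 58.4, 65.2, 48.2, 64.1 and 91.9 after cisplatin and 110.1, 94.2, 55.3, 58.8 and 51.2 after doxorubicin, with saline 2 the highest library. Acaa1b, a peroxisomal thiolase, stood at 624 to 1797 FPKM after saline and 252 to 596 after the drugs. Plin4, a coat protein of lipid droplets, stood at 5.52 to 20.7 FPKM after saline, the top value again in saline 2, and at 1.33 to 3.96 after the drugs. In triglyceride synthesis, Lpin2 and Dgat1 fell by 0.89 ± 0.19 and 0.38 ± 0.10, and Elovl1, which elongates very long fatty acids, rose by 0.46 ± 0.07.

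Bile acid genes held 5 separated genes below saline and 1 above among 28 tested, with 13 called lower, 1 called higher and a median of -0.38. The shares over all tested genes were 2.44% separated below, 2.75% above, 12.6% called lower and 11.6% called higher. Cyp27a1, the mitochondrial sterol hydroxylase of the side chain, stood at 298, 347, 309, 345 and 344 FPKM after saline, 213, 245, 202, 198 and 196 after cisplatin and 244, 214, 230.3, 234 and 231 after doxorubicin, and the drug groups overlapped. Slc27a2, a very long chain acyl-CoA synthetase and fatty acid transporter, stood at 882 to 1287 FPKM after saline and 394 to 772 after the drugs. Baat, which joins bile acids to taurine, was lower after doxorubicin, at 89.6 to 107 FPKM, than after cisplatin, at 124 to 143, against 148 to 161 after saline (difference between the drugs -0.46 ± 0.07, adjusted p = 0.000289). Acox2, a peroxisomal oxidase of branched chains, was the one above saline, with a change of 0.47 ± 0.10 and the lowest saline value in saline 2. Cyp7a1, the rate-limiting enzyme of bile acid synthesis, was named after its values were seen and was not called, with a pooled change of -0.70 ± 0.39 (adjusted p = 0.217).

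Other enzymes and regulators of the hepatocyte were separated below saline. Dio1 (chromosome 4, 107291465 to 107307168), the deiodinase that makes active thyroid hormone, stood at 76.4, 76.5, 62.1, 111 and 60.3 FPKM after saline, 32.2, 23.3, 36.9, 27.9 and 29.05 after cisplatin and 24.9, 22.9, 17.7, 21.6 and 25.2 after doxorubicin. The lowest saline value was 1.64 times the highest drug value. Rgs16 (chromosome 1, 153740353 to 153745468), which shortens signalling through G proteins, stood at 14.5, 32.9, 52.0, 31.9 and 43.4 FPKM after saline, 10.8, 5.42, 14.1, 5.93 and 6.30 after cisplatin and 5.56, 1.74, 1.60, 1.55 and 1.35 after doxorubicin, and saline 1 lay just above the highest cisplatin value. Hdc, the enzyme that makes histamine, stood at 19.4 to 74.7 FPKM after saline, with saline 2 far above the others, and at 3.32 to 13.4 after the drugs. Serpinb1a, an inhibitor of neutrophil proteases, stood at 3.99 to 6.02 FPKM after saline, 0.802 to 2.38 after cisplatin and 0.166 to 0.543 after doxorubicin. Slc25a47, a mitochondrial carrier of liver, stood at 339 to 530.0 FPKM after saline and 124 to 271 after the drugs, with a difference between the drugs of -0.02 ± 0.18.

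The sulfotransferases Sult1c2, Sult1d1 and Sult5a1 were the separated conjugation enzymes below saline (6 genes without saline 2), and their pooled falls were 1.27 ± 0.11, 1.09 ± 0.15 and 1.55 ± 0.26. Of 36 tested cytochromes P450 and their receptors 13 were called lower and 2 higher (median -0.28), beside 12.6% and 11.6% of all tested genes. Without saline 2 the separated P450 list genes below became 6. Cyp2c37 was separated below, at 295 to 459 FPKM after saline, 218 to 261 after cisplatin and 97.3 to 147 after doxorubicin, and Cyp2d26 was separated above by a change of only 0.24 ± 0.06. Members of the Cyp2 families share sequence, so the division of reads among them is uncertain. Of 44 tested genes of amino acid breakdown and the urea cycle 18 were called lower and 0 higher, and Prodh and Amdhd1, which start the breakdown of proline and act in that of histidine, were separated at falls of 0.85 ± 0.12 and 0.63 ± 0.10 (6 genes without saline 2). Slc37a4, the glucose 6-phosphate transporter of the ER, was separated with a fall of 0.86 ± 0.12, among 22 tested genes of gluconeogenesis and glucose handling of which 7 were called lower and 0 higher. The amino acid and glucose counts stand beside the same 12.6% and 11.6% of all tested genes.

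Some hormone-responsive genes of the liver fell. Of 19 tested glucocorticoid-responsive genes 7 were called lower and 1 higher (median -0.45), beside 12.6% and 11.6% of all tested genes. Tsc22d3, which encodes the glucocorticoid-induced leucine zipper GILZ, stood at 75.3, 118, 162, 83.0 and 92.7 FPKM after saline, 61.8, 64.4, 47.5, 50.1 and 66.1 after cisplatin and 64.1, 30.6, 32.1, 51.6 and 33.3 after doxorubicin. Errfi1, a feedback inhibitor of the EGF receptor, fell by 0.73 ± 0.14. Of 24 tested genes of the growth hormone and IGF axis 9 were called lower and 1 higher, and the separated ones were the growth hormone receptor Ghr, which fell by 0.40 ± 0.07, and its signal transducer Stat5b. Stat5b stood at 18.1, 20.4, 16.9, 16.2 and 19.5 FPKM after saline, 11.6, 13.1, 11.1, 13.2 and 11.5 after cisplatin and 10.1, 12.6, 11.5, 10.5 and 11.7 after doxorubicin, and the drug groups overlapped. Hnf4a, a master regulator of hepatocyte identity, stood at 154 to 189 FPKM after saline and 108 to 139 after the drugs. Among 27 tested hepatocyte transcription factors 7 were called lower and 3 higher, beside 12.6% and 11.6% of all tested genes.

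Markers of sinusoidal endothelium, the fenestrated lining of liver capillaries, fell in part. Of 17 tested markers 8 were called lower and 1 higher (median -0.40), and 5 were separated below, namely Stab2, Clec4g, Mrc1, Ptprb and Dnase1l3. Stab2, a scavenger receptor, stood at 6.46, 10.2, 6.33, 6.31 and 7.97 FPKM after saline, 1.99, 3.40, 2.52, 3.30 and 3.54 after cisplatin and 2.95, 4.39, 4.20, 3.79 and 4.31 after doxorubicin. Their summed level was 84.6 to 122 FPKM after saline, 35.9 to 82.9 after cisplatin and 48.9 to 87.7 after doxorubicin, so the highest doxorubicin library entered the saline range. Markers of other cells were separated singly: Jchain of plasma cells at 1.23 to 1.67 FPKM after saline and 0.429 to 1.22 after the drugs, near the filter level, and Itga2b of platelets by a ratio of 1.005. Of 5 tested B and plasma cell markers 3 were called lower and 0 higher (median -0.39). Of 3 tested platelet and megakaryocyte markers 1 was called lower and 0 higher (median -0.03), so Itga2b does not stand for its list. Rrm2, the subunit of ribonucleotide reductase that dividing cells make, stood at 1.54, 1.55, 2.41, 1.77 and 3.32 FPKM after saline, 1.17, 0.724, 1.14, 0.545 and 1.45 after cisplatin and 0.253, 0.197, 0.236, 0.427 and 0.128 after doxorubicin. Rrm2 was the separated gene among 20 tested cell cycle genes, and it passed the filter only with the saline libraries. Of these 3 were called lower and 1 higher, beside 12.6% and 11.6% of all tested genes.

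Genes that cover a long stretch of the genome were frequent among those below saline. The median distance from gene start to gene end was 34.2 kb in separated genes below saline, 14.0 kb in those above and 22.0 kb in all tested genes, with positions for 100%, 99.0% and 99.6% of them. Of 141 tested genes of 300 kb or more 29 were separated below saline (20.6%) and 2 above (1.42%), and 78 (55.3%) were called lower. Of 1261 genes under 5 kb 66 (5.23%) were above saline and 13 (1.03%) below. The length classes were chosen after the data were seen, and genes are not independent replicates.

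**Figure D3:**
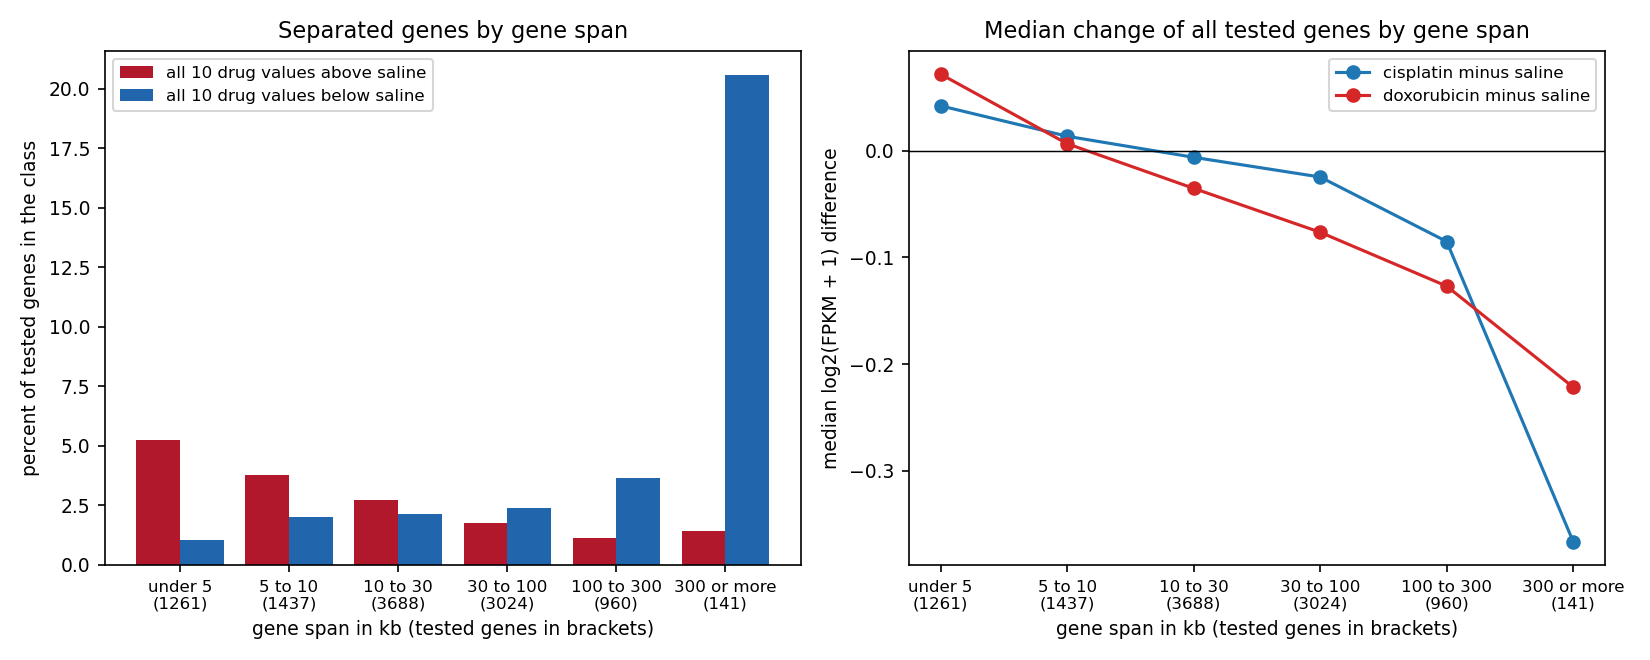
Left, percent of tested genes in each class of gene span (kb, start to end of the gene) with all 10 drug values above or below every saline value. Right, median change of all tested genes of the class after each drug, both against the same 5 saline libraries; in the class of 300 kb or more the share below saline is 20.6% and the medians are -0.37 after cisplatin and -0.22 after doxorubicin.

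Immp2l (chromosome 12, 41024061 to 41955588, 932 kb), which encodes a subunit of a mitochondrial inner membrane peptidase, had the largest fall of the listed long genes. It stood at 22.1, 29.7, 27.3, 26.6 and 29.04 FPKM after saline, 3.74, 2.08, 1.64, 2.12 and 3.12 after cisplatin and 11.6, 14.4, 15.3, 17.2 and 17.96 after doxorubicin. The 3 groups lay apart, and doxorubicin exceeded cisplatin by 2.22 ± 0.15 (adjusted p = 1.09e-07). Wwox (913 kb), an oxidoreductase gene at a common fragile site, stood at 3.31 to 4.39, 0.342 to 0.648 and 1.29 to 2.54 FPKM after saline, cisplatin and doxorubicin. Fhit (1612 kb), also at a fragile site, stood at 2.12 to 2.76, 0 to 0.741 and 0.385 to 1.30 FPKM, and cisplatin 2 is listed at 0. Without the saline libraries Fhit would not have passed the filter. Dpyd (871 kb), which starts the breakdown of pyrimidines, differed from this order: it stood at 51.7 to 64.0 FPKM after cisplatin and 50.7 to 64.8 after doxorubicin, against 107 to 135 after saline. Exoc4 (725 kb), an exocyst subunit, was an exception in direction, at 1.199 to 2.29 FPKM after saline, 2.94 to 4.16 after cisplatin and 6.09 to 9.55 after doxorubicin. Of 36 tested genes listed for their great length 19 were called lower and 1 higher, and 10 were separated below and 1 above.

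The rule treats the drugs alike, so it does not set the direction of the difference between them. Limma called doxorubicin minus cisplatin in 161 of the 547 genes (29.4%), against 2151 of all 10552 tested (20.4%). The separated genes were also more abundant, with a median mean level of 21.3 FPKM above and 11.2 below saline against 7.89 FPKM over all tested genes, and the part of abundance and of a small spread in the larger share was not tested. Among the 290 genes above saline 84 differed, and doxorubicin had the larger rise in 81. The 3 with the larger rise after cisplatin were Apoa4, Lss and Elovl1. Among the 257 below, 77 differed, with the larger fall after doxorubicin in 64 and after cisplatin in 13. Those 13 were Diaph2, Dis3l2, Fhit, Gtdc1, Hba-a1, Hba-a2, Immp2l, Myo1d, Ptprg, Rsrc1, Shank2, Sugct and Wwox, of which 10 span at least 300 kb, and their median span was 448 kb. The 64 genes with the larger fall after doxorubicin had a median span of 32.5 kb, and 4 of them span at least 300 kb. Over all 141 tested genes of that length, 49 were called higher after doxorubicin than after cisplatin and 13 lower, against 950 and 1201 of all 10552 tested genes. The doxorubicin libraries were deeper than the cisplatin libraries and had another vehicle, which cannot be told apart from the drug in this difference.

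**Figure D4:**
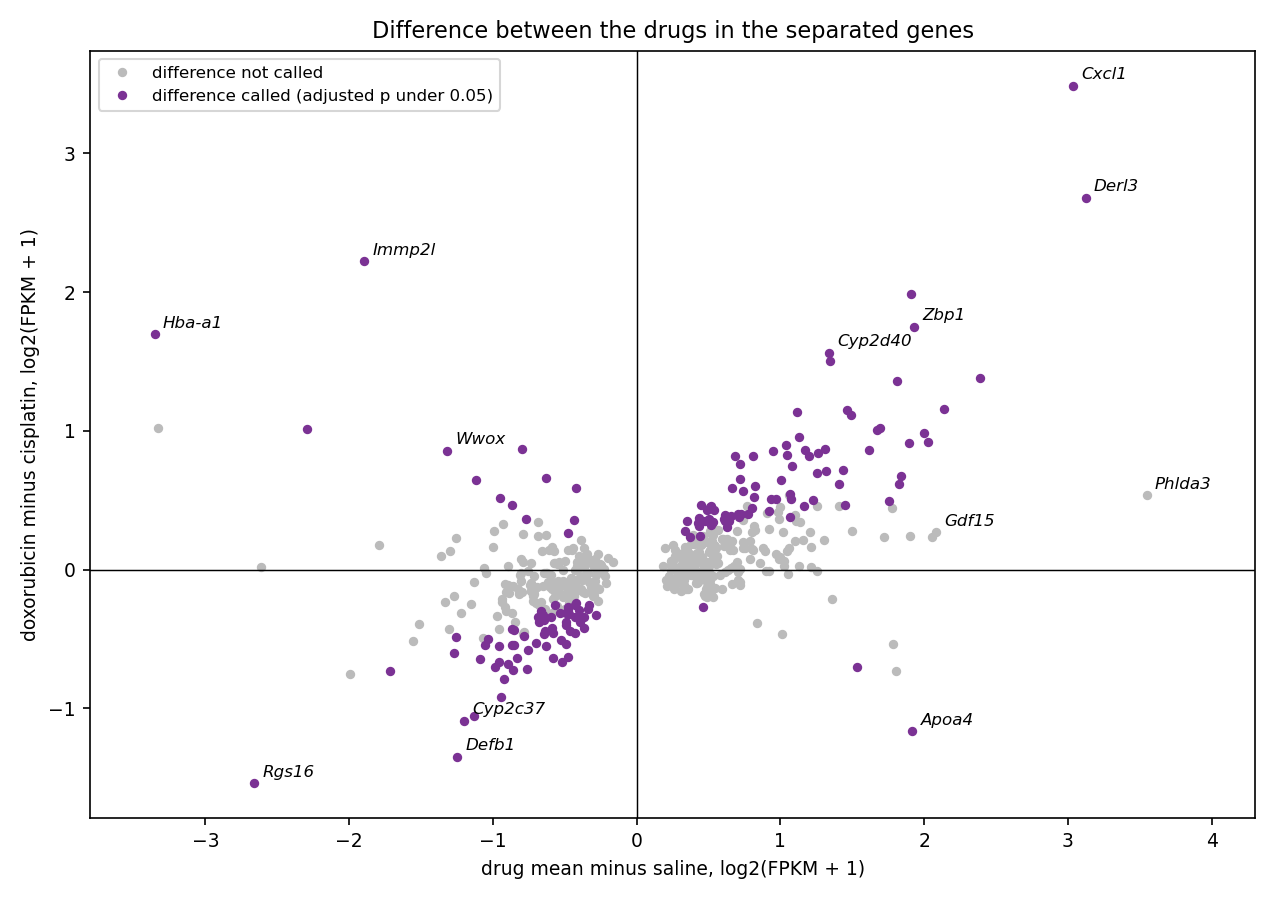
Doxorubicin minus cisplatin against the pooled change (both as differences of mean log2(FPKM + 1)) for the 547 separated genes, with called differences in purple and grey otherwise. Most called genes lie to the upper right and lower left, where the doxorubicin change is the larger, and Immp2l, Hba-a1 and Wwox lie to the upper left.

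Among genes above saline, the largest differences in favour of doxorubicin after Cxcl1, Derl3 and the gene model BC021614 were in Zbp1 (1.75 ± 0.15) and Cyp2d40 (1.56 ± 0.15). Cyp2d40, a cytochrome P450, stood at 50.2, 40.1, 45.3, 47.6 and 33.1 FPKM after saline, 75.4, 51.9, 73.3, 64.8 and 55.9 after cisplatin and 215, 217, 173, 134 and 227 after doxorubicin. Below saline, doxorubicin was lower than cisplatin by 1.54 ± 0.34 in Rgs16, by 1.35 ± 0.15 in the antimicrobial peptide gene Defb1, by 1.09 ± 0.13 in Cyp2c37 and by 1.06 ± 0.18 in the anion transporter gene Slc17a4. Defb1 stood at 4.28 to 5.55 FPKM after saline, 2.34 to 3.70 after cisplatin and 0.139 to 1.10 after doxorubicin, and those ranges did not overlap. The difference was not called in 386 genes, which does not show that the drugs act alike there. Among genes with a pooled change of at least 1, those with the smallest difference were Ddias, a survival factor after DNA damage (-0.01 ± 0.16), Endog, a mitochondrial nuclease (0.02 ± 0.14), Dpyd (0.01 ± 0.09), Tnfrsf10b (0.02 ± 0.16), Slc25a47 and Polk (-0.03 ± 0.18). Ddias stood at 0.111, 0.246, 0.293, 0.233 and 0.115 FPKM after saline, 2.25, 1.08, 1.39, 2.996 and 2.02 after cisplatin and 2.75, 2.02, 1.31, 1.42 and 1.98 after doxorubicin.

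Some separated genes are neighbours. Within 5 kb of each other lay 7 pairs of 1 direction, of which 2 overlap. How often tested genes lie that close was not counted, so the number of pairs is a description only. Tymp, thymidine phosphorylase, and Odf3b lie 410 bases apart on chromosome 15, and both were lower, at 48.3 to 108 and 37.97 to 60.8 FPKM after saline and 19.96 to 38.8 and 13.5 to 28.9 after the drugs. Bbc3 and Sae1 lie 1901 bases apart and Adh4 and Adh5 4516 bases apart, and these pairs were higher. The strand setting of the counting is not given in the sources used here, so reads of the overlapping pairs, Endog with D2Wsu81e and Tmem176b with Tmem176a, may have been shared.

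The rule sets a sharp border through a continuous range. Just inside it lay Shc1, Dis3l2, Cdc16 and Edem2. Shc1, an adaptor of growth factor receptors, stood at 17.8 to 20.5 FPKM after saline and 20.5 to 24.4 after the drugs, and Edem2, of ER-associated degradation, at 22.7 to 28.6 and 28.6 to 50.99, so that the nearest values of each differed by less than the rounding. Just outside lay genes with 1 drug library within the saline range, of which Lcn2, Hbb-bs, Elovl3 and Slco1a4 had the largest changes. Lcn2, the acute phase siderophore binder lipocalin 2, stood at 36.6, 15.2, 85.9, 24.7 and 13.8 FPKM after saline, 219.7, 939.6, 135, 180.2 and 54.9 after cisplatin and 350.2, 514, 287, 281 and 478 after doxorubicin, and only cisplatin 5 overlapped saline 3. Its pooled change of 3.22 ± 0.53 exceeded that of most separated genes. Slco1a4, an uptake transporter, stood at 30.8 to 81.3 FPKM after saline, 24.9 to 35.6 after cisplatin and 3.51 to 11.8 after doxorubicin.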

How the data were processed

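Poly(A)-selected RNA of mouse liver was sequenced in 15 libraries. Per the submitters' processing notes, reads were trimmed with Trim Galore 0.4.1, aligned with HISAT2 2.0.1 to GRCm38 (mm10) and counted with featureCounts 1.4.6, and edgeR is named without a version. The authors deposited 1 table of FPKM, with 21878 genes, and its unused columns numbered 0. The strand setting and annotation release are not given in the sources used here. Reads assigned to genes per library (in megareads, M) were recovered from the steps between low FPKM values.

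Genes that reached 1 FPKM in 5 or more libraries were tested as log2(FPKM + 1) with limma 3.58.1 (R 4.3.3), 1 mean per group, moderated spread with a trend and robust settings, and adjusted p-values under 0.05. Changes on this scale understate those of low genes. The fit was tested on simulated data with 200 changed genes. Gdf15, Xbp1 and Ern1 also had exact two-sided permutation tests, given only for Ern1, since separation nearly fixes the others. Tables were handled in Python 3.11.15. The members and the 45 lists were chosen with earlier results of these data known. Named genes are Gdf15, Xbp1 and Ern1, the largest changes, the separated genes of each list, the largest and smallest differences between the drugs and the genes nearest the border of the rule, and other names were chosen after their values were seen. Gene positions were matched by symbol for 20461 genes and by an older symbol for 883, with 534 unplaced, on GRCm38. Promoter sequences are those of RefSeq on GRCm38.p6. Alternatives were other pseudocounts, filters, scalings, thresholds and fits, and leaving out each library.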

Additional observations from a re-analysis of the deposited data

Results flagged for a closer look

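In groups of 5 libraries, a library was picked out when its gap to the nearest other value exceeded 0.71 of the range of its group. Of 333 groups, from 111 genes, 30 had such a library, and chance gives about 1 in 20. Cisplatin 2 stood apart as the highest library of its group in Hp (9484 FPKM), Hpx (7943 FPKM) and Lcn2 (939.6 FPKM). Cisplatin 3 stood apart as the highest library of its group in Derl3 (22.3 FPKM) and as the lowest library of its group in Hbb-bs (4.72 FPKM). Cisplatin 4 stood apart as the highest library of its group in Polk (9.33 FPKM). Doxorubicin 1 stood apart as the highest library of its group in Cbr3 (4.75 FPKM), Ccng1 (93.9 FPKM), Cct2 (57.1 FPKM), Gstm4 (132 FPKM), Rgs16 (5.56 FPKM) and Srxn1 (50.9 FPKM) and as the lowest library of its group in Fhit (0.385 FPKM). Doxorubicin 2 stood apart as the highest library of its group in Hbb-bs (116 FPKM) and Hbb-bt (14.7 FPKM). Doxorubicin 4 stood apart as the lowest library of its group in Plk2 (14.5 FPKM). Doxorubicin unnumbered stood apart as the highest library of its group in Hspa4l (3.63 FPKM) and as the lowest library of its group in Slc25a47 (124 FPKM). Saline 1 stood apart as the highest library of its group in Elovl3 (123 FPKM). Saline 2 stood apart as the highest library of its group in Angptl4 (223 FPKM), Cdc16 (9.998 FPKM), Hdc (74.7 FPKM), Lpin2 (124 FPKM) and Plin4 (20.7 FPKM) and as the lowest library of its group in Acox2 (60.1 FPKM), Ephx1 (217 FPKM) and Fth1 (1156 FPKM). Saline 3 stood apart as the lowest library of its group in Gdf15 (4.92 FPKM). Saline 4 stood apart as the highest library of its group in Atp8b5 (0.309 FPKM) and as the lowest library of its group in S100a9 (1.32 FPKM). No explanation was tested for these values.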

How the results depend on the processing

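With each library left out in turn, the rule gave 295 to 443 separated genes above saline and 263 to 352 below, limma called 984 to 1321 genes higher and 953 to 1459 lower in the pooled comparison, and doxorubicin minus cisplatin was called higher in 75 to 99 and lower in 50 to 78 separated genes. The highest count above saline came without saline 2 (443), where 9 PPARα genes were called lower. With the drug libraries fitted as 1 group, 787 genes were called higher and 844 lower. At an adjusted p of 0.01 the counts were 695 and 680, and between the drugs 61 and 39. Asking for values 1.2-fold apart left 75 and 57 separated genes, and allowing 9 of 10 drug values gave 529 and 527. Rescaling to a common FPKM sum gave 258 and 293, median-ratio scaling 332 and 220 (80.3% and 61.9% of the original genes), quantile normalization 318 and 259. Same-numbered libraries were not treated as pairs, since the labels do not state that numbers mark shared animals or days. Of 13 such pairs 2 correlated above 0.1 (range -0.55 to 0.35), which does not exclude a shared factor. With the replicate block limma called 852 higher and 870 lower, and between the drugs 61 and 39. Gdf15, Xbp1 and Ern1 kept their direction and side of the threshold under every alternative, as did the calls of all other genes under the naming rule but 16. Each of these lost its call under 1 to 12 alternatives, and Cct2, Cdc16, Clec9a, Polr1e and Utp20 did when 1 library was left out. Many genes under the naming rule, Gdf15 and Xbp1 among them, were separated or had large changes in the same values. That such genes kept their calls was therefore nearly fixed and is no independent support. No called change of a gene under the naming rule reversed its sign, but over all tested genes the direction with more calls did. Rescaling to a common FPKM sum kept more calls lower, with 1104 higher and 1468 lower. More were higher with median-ratio scaling (1452 and 1230), quantile normalization (1406 and 1374) and without saline 2 (1321 and 1107). The causes were not tested. The recovered depths of 25.3 to 50.7 M reads limit the precision of genes with few reads.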

Other observations

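Families of genes sharing a symbol stem were counted after their values had been seen. Of 77 tested cytosolic ribosomal protein genes 28 were called higher and 0 lower, 9 were separated above saline, and the median pooled change was 0.22. Of 9 tested α- and β-tubulin genes, whose proteins form microtubules, 7 were called higher and 0 lower, and Tubb4b, Tuba4a, Tuba1c and Tubb6 were separated. Tubb4b stood at 54.3, 52.2, 48.1, 43.8 and 53.4 FPKM after saline, 109, 127, 112, 115 and 84.3 after cisplatin and 197, 162, 144, 166 and 169.7 after doxorubicin, so all 3 groups lay apart. Of 4 tested alcohol dehydrogenase genes 3 were called higher, and Adh1 stood at 842 to 1314 FPKM after saline and 1542 to 2373 after the drugs. Near-identical ribosomal protein and tubulin copies may share reads.

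Of 39 tested mitochondrial carriers of the Slc25a family 13 were called lower and 2 higher, with 5 separated below and 1 above. Over all tested genes these shares were 12.6%, 11.6%, 2.44% and 2.75%. Slc25a42, a carrier of coenzyme A, stood at 79.8, 109, 59.2, 68.8 and 68.6 FPKM after saline, 39.8, 35.4, 37.02, 54.1 and 44.8 after cisplatin and 38.1, 44.7, 43.8, 30.99 and 36.6 after doxorubicin. Of 21 tested major urinary protein genes 3 were called lower, a share near the 12.6% of all tested genes, with medians of -1.39 after cisplatin and -0.24 after doxorubicin, and their copies share sequence. Among unlisted genes above saline, Rpn1, a subunit of the enzyme that adds N-glycans in the ER, changed by 1.16 ± 0.09, Mbl2, a mannose-binding lectin of plasma, by 1.76 ± 0.13, and Odc1, which starts polyamine synthesis, by 0.80 ± 0.13.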
